A study of Caenorhabditis elegans with 24 samples.

Results

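The nuclear hormone receptor genes named *nhr-* in the *C. elegans* annotation (WBcel235) are described here across 4 successive generational exposures to hypoxia. Of the 46926 genes in the count table, 269 carry such a name, and 265 of them are described after leaving out *nhr-23*, *nhr-25*, *nhr-49* and *nhr-57*. Each library was made from whole wild-type worms (strain N2) grown on OP50 bacteria and labelled as L4, the last larval stage. At each exposure, 3 biological replicates were kept for 16 hours in 0.1% oxygen (hypoxia) and 3 in incubator air at the atmospheric oxygen level (normoxia), which gives 8 groups and 24 poly(A) RNA libraries. Exposure 1 is the P0 generation, and part of the worms of an exposure was kept to lay the eggs from which the next generation was raised. Exposure began at the L4 stage and worms were collected at its end. The question the study asked of these libraries was which transcripts respond to hypoxia each time it is met and which no longer respond after repeated exposures.

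Nuclear hormone receptors are transcription factors that bind DNA through a zinc finger domain and, through a separate domain, small fat-soluble ligands such as sterols and fatty acids, so that they can couple the state of metabolism to gene expression. The family is greatly expanded in nematodes, and most of its worm members descend from an ancestor related to the vertebrate fatty acid receptor HNF4. Worm receptors with a known role act in fat storage, in the response to diet, toxins and pathogens, in sterol signaling and in development, while most have no assigned role.

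The family was expressed at a low level. Its members together held 0.144 to 0.232% of the counts of a library, where the libraries held 26862487 to 46228496 counts, and 218 to 244 members had at least 1 count in a library. With the filter used here, a sum of at least 350 counts over the 6 libraries of an exposure, 147, 155, 144 and 152 members could be tested in exposures 1 to 4. Of the 265 members, 141 passed the filter in all 4 exposures, 19 in 1 to 3 of them and 105 in none. The 105 members without a test had a median of 101 counts over all 24 libraries and at most 1095, and 5 of them had no count at all. By the annotation, 166 members lie on chromosome V, 33 on IV, 22 on X, 21 on I, 15 on II and 8 on III, and all are protein coding. The exons of 21 members overlap those of another gene on the same strand and those of 46 members a gene on the opposite strand. Because no source says if reads were assigned by strand, values of overlapping members are uncertain, and each overlap is given where such a member is named.

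Replicates were uneven in several groups, and in exposure 1 this bears on all counts of that exposure. Hypoxia replicate 2 and normoxia replicate 1 stood apart from the other libraries of their groups, with a chi-square per gene of 122.6 and 142.01 against 10.01 between the other hypoxia libraries, and of 113.1 and 141.7 against 17.4 between the other normoxia libraries. Hypoxia replicate 1 of exposure 4 stood apart as well (432.9 and 452.5 against 5.83). So did hypoxia replicate 1 of exposure 3 (211.9 and 102.5 against 64.1). In normoxia, replicate 3 of exposure 2 (91.9 and 58.7 against 20.0) and replicate 2 of exposure 3 (45.1 and 64.7 against 12.3) did too. The biological coefficient of variation between replicates over all genes was 0.235, 0.101, 0.160 and 0.1285 in exposures 1 to 4, largest in exposure 1 and smallest in exposure 2. Marker genes of several tissues also moved with hypoxia. All 6 sperm genes rose in exposures 1, 2 and 4 and none was called in exposure 3, and the summed level of the 6 vitellogenin (yolk) genes was 46741 to 101339 CPM (the standard counts-per-depth unit of edgeR's cpm function, on normalized library sizes) in normoxia and 18381 to 59375 CPM in hypoxia over the 4 exposures. The sums are carried by *vit-2*, *vit-5* and *vit-6*, and in exposure 2 those 3 genes fell while *vit-1*, *vit-3* and *vit-4* rose (3.02, 0.68 and 0.78 on the log2 scale). Of 7 oocyte and germ line markers, 6 fell and 1 rose in exposure 2, 5 fell in exposure 4, 1 rose in exposure 3 and none was called in exposure 1. All 5 body wall muscle markers rose in exposure 2 (median 1.02), and 2 fell in each of exposures 3 and 4. For comparison, 13.3%, 37.2%, 12.4% and 27.1% of all genes tested rose and 7.4%, 36.3%, 17.7% and 23% fell in exposures 1 to 4. Yolk transcripts, which adult hermaphrodites make, were thus abundant in libraries labelled L4. In whole worms, fewer cells of a type and less RNA per cell cannot be told apart.

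The balance between rising and falling members differed between exposures. A member was called up- or down-regulated at a Benjamini-Hochberg adjusted p under 0.05 in edgeR's quasi-likelihood test, fitted separately in each exposure on all genes that passed the filter. In exposure 1, 16 of 147 members rose (10.9%, against 13.3% of all genes tested) and 4 fell (2.72% against 7.4%). In exposure 2, 47 of 155 rose (30.3% against 37.2%) and 50 fell (32.3% against 36.3%). More members fell than rose in exposure 3, in which 13 of 144 rose (9.03% against 12.4%) and 29 fell (20.1% against 17.7%). In exposure 4 the balance was the opposite, with 42 of 152 members rising (27.6% against 27.1%) and 10 falling (6.58% against 23%). The shares called down in exposures 1 and 4 lay below those of all genes tested by the widest ratios, a description with no test.

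The median member moved with these counts. The median log2 fold change of the members tested was 0.26, -0.01, -0.09 and 0.21 in exposures 1 to 4, beside -0.02, -0.01, 0.03 and -0.00 over all genes tested. Members above a log2 fold change of 0 were 96 of 147 (65.3%), 77 of 155 (49.7%), 62 of 144 (43.1%) and 109 of 152 (71.7%), beside 48.1%, 49.4%, 53.2% and 50% of all genes. Called changes of members were mostly under 2-fold in exposures 2 and 4. Of the rises, 9 of 16 reached 2-fold in exposure 1, and 10 of 47, 8 of 13 and 10 of 42 did in exposures 2 to 4. Among the falls, 1 of 4, 13 of 50, 13 of 29 and 2 of 10 reached that size. These counts by size were not made over all called genes, so they do not set the family apart from other genes. The plot of all members by exposure shows this shift of the whole cloud as well as of the called genes. The count of exposure 1 depended on single libraries, with 37 members called up without hypoxia replicate 2, 7 without normoxia replicate 1 and 2 to 9 when 1 of the other 4 libraries was left out. No member was called down in exposure 1 without hypoxia replicate 1, normoxia replicate 2 or normoxia replicate 3, and 7 were without hypoxia replicate 2. The falls of exposure 3 numbered 16 to 18 without hypoxia replicate 1 or 2 or normoxia replicate 1 or 3. In exposure 4, 30 members rose and 10 fell without hypoxia replicate 1, and 26 rose without hypoxia replicate 2 or normoxia replicate 2.

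**Figure D1:**
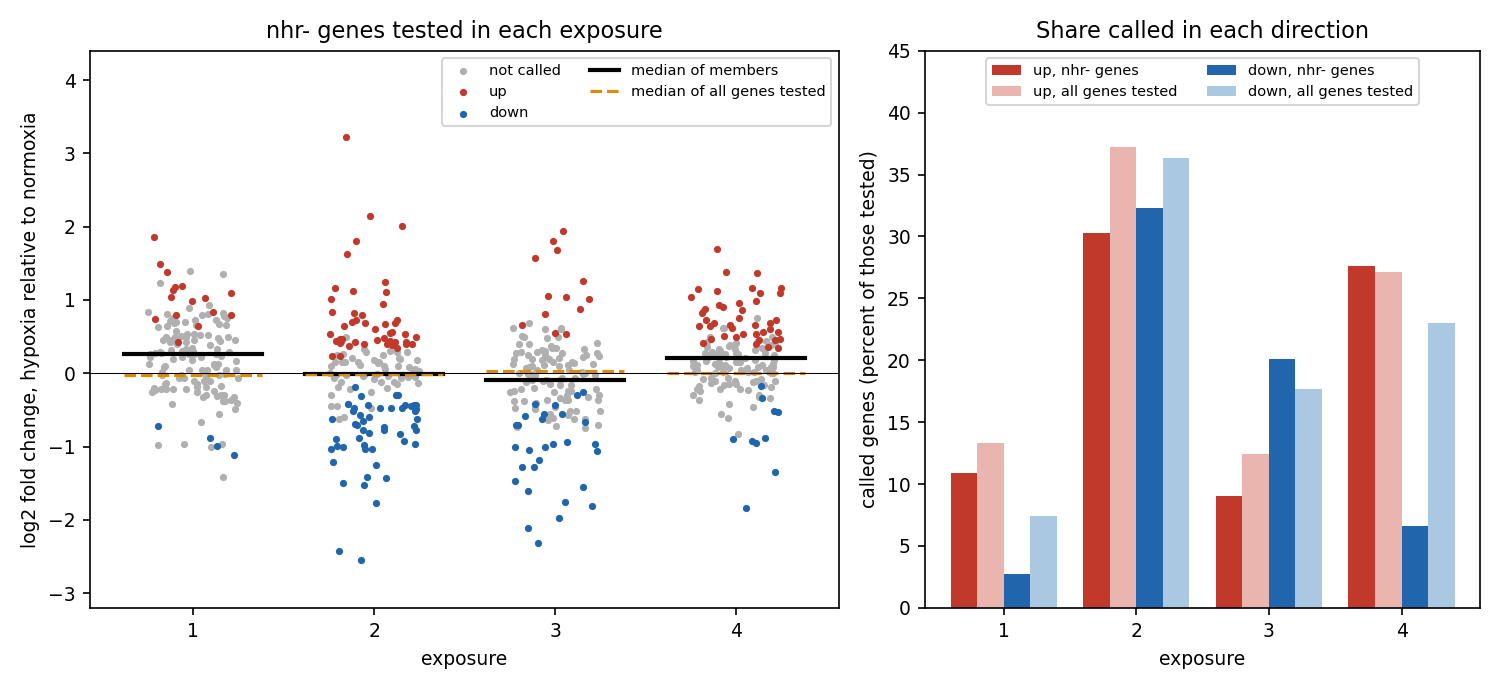
Left, log2 fold change of hypoxia relative to normoxia (y axis) of every *nhr-* gene tested in exposures 1 to 4 (x axis), 1 point per gene, red for called up, blue for called down and grey for not called, with the median of the members (black line) and of all genes tested (dashed line). Right, percent of the tested *nhr-* genes and of all tested genes called up and down in each exposure. The median of the members lies at 0.26 and 0.21 in exposures 1 and 4, and the members called down are 2.72% and 6.58% there, against 7.4% and 23% of all genes.

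Over the 4 exposures, 120 of the 160 members tested at least once were called in at least 1 exposure. Of these, 60 were only ever called up, 54 only ever down, and 6 in both directions; 57 were called in a single exposure. Of the 141 members tested in every exposure, 33 were never called. These counts were not made over all genes tested, of which 37.2% rose and 36.3% fell in exposure 2 alone. Being called in the same direction each time was rare: 4 of the 141 members rose in all 4 exposures (2.84%, against 4.45% of all genes tested in every exposure) and 2 fell in all 4 (1.42% against 1.98%). With single libraries of exposure 1 left out these counts fell to as few as 1 (without hypoxia replicate 3 or normoxia replicate 3) and 0 (without hypoxia replicate 1, normoxia replicate 2 or normoxia replicate 3), and the second was 1 without hypoxia replicate 1 or 2 or normoxia replicate 1 or 3 of exposure 3.

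The 4 members that rose each time were *nhr-115*, *nhr-61*, *nhr-131* and *nhr-202*, for none of which a role is given here. *nhr-115* lies at V:2292540-2294800 on the plus strand. In exposure 1, normoxia libraries held 1.66, 2.601 and 2.47 CPM and hypoxia libraries 7.03, 8.44 and 8.57 CPM, and in exposure 2 these were 3.74, 3.21 and 3.85 CPM and 17.9, 14.04 and 12.7 CPM. The corresponding values were 3.44, 2.34 and 2.94 CPM and 10.9, 8.02 and 11.4 CPM in exposure 3 and 1.19, 1.495 and 1.39 CPM and 3.03, 3.88 and 3.91 CPM in exposure 4. Every hypoxia library lay above every normoxia library of its exposure, and the level in both conditions was lowest in exposure 4. The log2 fold changes were 1.86 ± 0.23, 2.15 ± 0.16, 1.80 ± 0.21 and 1.37 ± 0.18 (SE) in exposures 1 to 4, with adjusted p of 0.00177, 9.3e-07, 0.000712 and 0.00046. It was called in each fit that left out a library, with adjusted p of at most 0.0109 in edgeR.

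*nhr-61* (II:14816136-14818543, minus strand, exons overlapping *W01D2.1* on the opposite strand) responded most strongly in the second exposure. Its level in exposure 1 was 13.5, 15.6 and 17.4 CPM in normoxia and 31.5, 21.5 and 41.1 CPM in hypoxia, and in exposure 2 it was 18.9, 20.3 and 22.02 CPM and 87.04, 67.5 and 74.7 CPM. In exposure 3, 13.3, 12.2 and 11.6 CPM were measured in normoxia and 36.9, 37.5 and 44.7 CPM in hypoxia, and in exposure 4 12.8, 13.5 and 11.7 CPM and 19.9, 22.02 and 23.4 CPM. The groups did not overlap in any exposure, although hypoxia replicate 2 of exposure 1 lay close to the highest normoxia library. Relative to normoxia, its log2 fold changes were 1.04 ± 0.25, 2.01 ± 0.10, 1.68 ± 0.12 and 0.75 ± 0.10 (SE) in exposures 1 to 4, with adjusted p of 0.0273, 6.7e-08, 7.4e-05 and 0.000454. In exposure 1 the call was lost in 5 of the 6 fits that left out a library, with an adjusted p of up to 0.0818 (without normoxia replicate 2) and log2 fold changes of 0.79 to 1.26.

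*nhr-131* (V:494370-497297) and *nhr-202* (V:462588-464963, overlapping its neighbour *nhr-201* on the same strand) lie near each other on the left arm of chromosome V. The normoxia libraries of exposure 1 held 4.06, 5.65 and 5.07 CPM and the hypoxia libraries 10.5, 7.69 and 11.5 CPM, followed by 6.55, 6.32 and 6.87 CPM and 14.5, 12.5 and 12.9 CPM in exposure 2. Exposure 3 gave 5.904, 3.33 and 4.099 CPM in normoxia and 8.11, 10.8 and 13.1 CPM in hypoxia, and exposure 4 gave 4.96, 3.405 and 3.53 CPM and 8.28, 8.12 and 7.73 CPM. In each exposure the lowest hypoxia library was above the highest normoxia library. The log2 fold changes of *nhr-131* were 1.03 ± 0.22, 1.12 ± 0.11, 1.26 ± 0.26 and 0.99 ± 0.16 (SE) in exposures 1 to 4, with adjusted p of 0.0193, 9.4e-06, 0.0083 and 0.00151. For *nhr-202*, normoxia libraries held 2.60 to 4.85 CPM over the 4 exposures and hypoxia libraries 4.89 to 9.73 CPM, and the groups were apart in each exposure. Its log2 fold changes were 0.79 ± 0.19, 1.11 ± 0.15, 0.81 ± 0.21 and 0.90 ± 0.17 (SE) in exposures 1 to 4, with adjusted p of 0.0308, 8.8e-05, 0.0216 and 0.00309. In exposure 1 the call of *nhr-131* was lost in 3 of 6 such fits and that of *nhr-202* in 4 of 6, with adjusted p of up to 0.0759 and 0.113, both without hypoxia replicate 3, and in exposure 3 that of *nhr-202* in 4 of 6 (up to 0.0832, without normoxia replicate 1).

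The members that fell each time were *nhr-68* and *nhr-2*. *nhr-68* (V:11573440-11575709, plus strand) encodes a receptor that, together with NHR-10, turns on the propionate shunt, an alternative route of propionate breakdown used when vitamin B12 is low. In exposure 1, normoxia libraries held 41.98, 40.6 and 42.4 CPM and hypoxia libraries 24.96, 15.6 and 26.4 CPM, and in exposure 2 these were 44.5, 42.01 and 40.3 CPM and 20.5, 17.5 and 19.6 CPM. The corresponding values were 47.1, 48.2 and 48.3 CPM and 14.5, 13.04 and 13.5 CPM in exposure 3 and 35.5, 39.5 and 40.9 CPM and 15.1, 16.5 and 15 CPM in exposure 4. All hypoxia libraries were well below all normoxia libraries, which lay between 35.5 and 48.3 CPM over the 4 exposures. On the log2 scale the fold changes were -0.88 ± 0.21, -1.03 ± 0.09, -1.81 ± 0.09 and -1.35 ± 0.08 (SE) in exposures 1 to 4, with adjusted p of 0.0268, 2.1e-06, 2.3e-05 and 1.5e-05. In exposure 1 the call was lost in 4 of 6 fits that left out a library, with an adjusted p of up to 0.0734 (without normoxia replicate 2).

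*nhr-2* (I:5818474-5821134, minus strand) is an early zygotic gene needed in the embryo. Oocyte and germ line markers had median log2 fold changes of -0.27, -0.62, 0.19 and -0.27 in exposures 1 to 4, and their part in its values was not tested. Its level in exposure 1 was 34.5, 37.5 and 41.1 CPM in normoxia and 15.8, 23.6 and 12.2 CPM in hypoxia, and in exposure 2 it was 27.9, 27.8 and 26.2 CPM and 8.83, 12.9 and 10.5 CPM. In exposure 3, 29.1, 23.4 and 26.9 CPM were measured in normoxia and 19.7, 19.5 and 19.9 CPM in hypoxia, and in exposure 4 25.1, 23.5 and 25.3 CPM and 17.9, 18.00 and 17.2 CPM. The gap between the groups was wide in exposures 1 and 2 and narrow in exposures 3 and 4. The log2 fold changes were -1.12 ± 0.23, -1.25 ± 0.13, -0.43 ± 0.11 and -0.51 ± 0.07 (SE) in exposures 1 to 4, with adjusted p of 0.0156, 1e-05, 0.0209 and 0.00077. The call was lost in 3 of 6 such fits in exposure 1 (adjusted p up to 0.0705, without normoxia replicate 2) and in 4 of 6 in exposure 3 (up to 0.0903, without normoxia replicate 1).

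**Figure D2:**
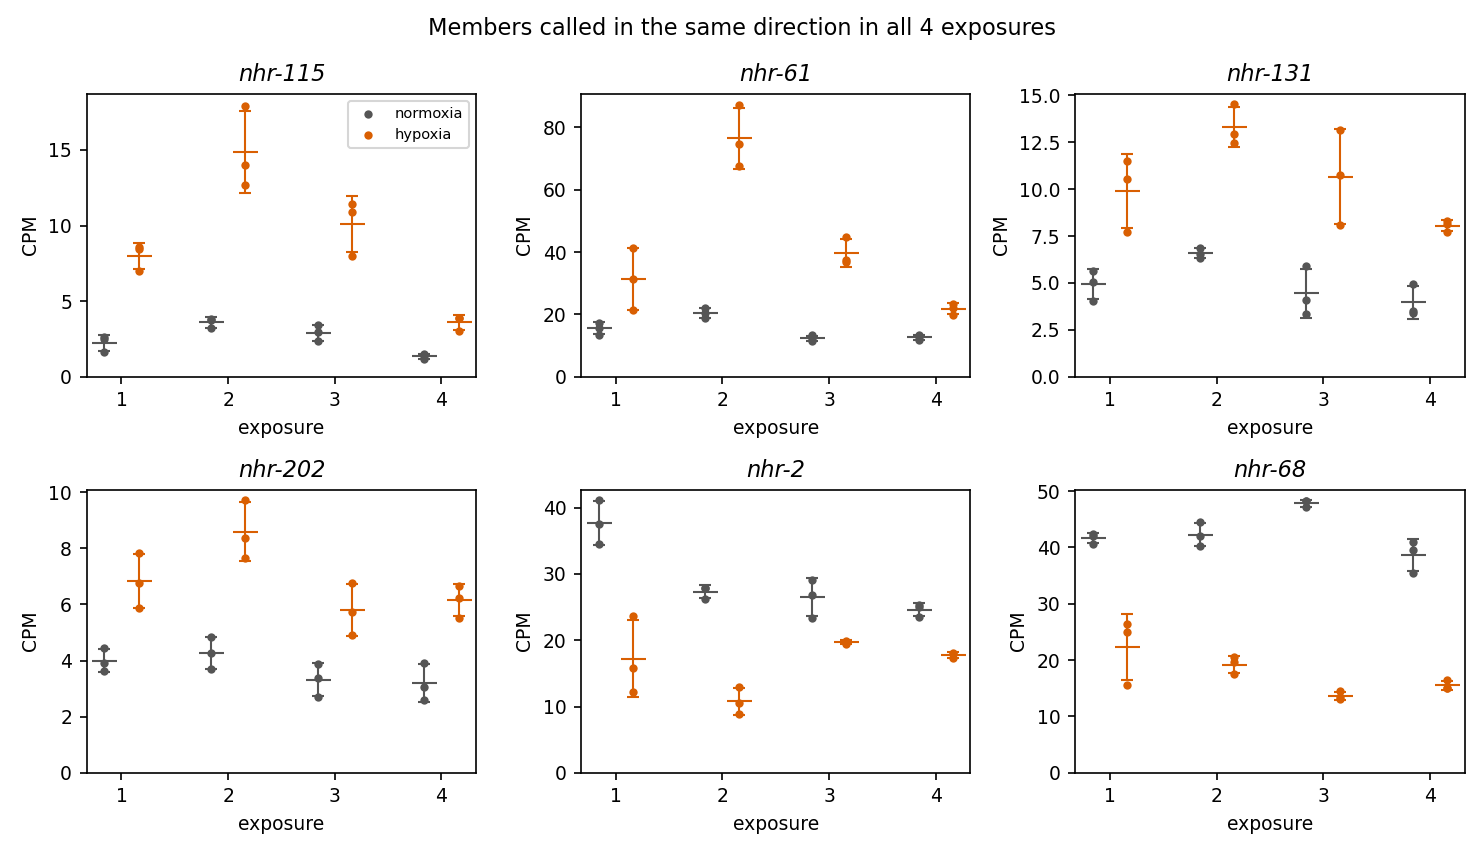
CPM (y axis, starting at 0) of the 6 *nhr-* genes called up or called down each time, by exposure (x axis). Points are libraries, grey for normoxia and orange for hypoxia, and horizontal ticks with bars are the mean ± SD of 3 libraries. Hypoxia lies above normoxia for *nhr-115*, *nhr-61*, *nhr-131* and *nhr-202* and below it for *nhr-68* and *nhr-2*, without overlap in any exposure.

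A further 9 members rose and 5 fell in exactly 3 exposures, counts that were not made over all genes. Among the 9 were *nhr-17*, *nhr-18*, *nhr-10*, *nhr-14* and *nhr-88*. *nhr-17* (X:12663837-12667854, exons overlapping *nlp-76* on the same strand) had the highest level per kilobase of the family, a mean of 41.1 CPM per kilobase of exon over all libraries, and the largest rise of exposure 3. Its hypoxia libraries held 144, 109 and 113.8 CPM in exposure 3, against 30.8, 25.5 and 38.9 CPM in normoxia. In exposure 1 the groups overlapped, with hypoxia at 42.5, 114.1 and 60.8 CPM and normoxia at 30.9, 42.2 and 45.5 CPM, hypoxia replicate 2 being the highest. Its log2 fold changes were 0.89 ± 0.35, 1.25 ± 0.06, 1.94 ± 0.17 and 1.38 ± 0.08 (SE) in exposures 1 to 4, with adjusted p of 0.118, 7.2e-08, 0.00021 and 9.6e-06. After *nhr-17*, the next levels were those of *nhr-46*, *nhr-88*, *nhr-86* and *nhr-68*, with 24.2, 23.1, 22.9 and 22.6 CPM per kilobase.

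Single exposures held larger changes. In exposure 2, *nhr-113* (I:11473218-11475662) rose from 0.364, 0.608 and 0.285 CPM in normoxia to 3.27, 3.36 and 4.196 CPM in hypoxia, a log2 fold change of 3.22 ± 0.28 (SE, adjusted p = 3.0e-06). It passed the filter only in exposures 2 and 4, and in exposure 4 it was not called (-0.55 ± 0.25, adjusted p = 0.096). The largest falls of exposure 2 were those of *nhr-127* (V:16259984-16263953, overlapping *nhr-218* on the same strand) and *nhr-193* (V:16342308-16344401, overlapping *W08G11.5* on the opposite strand). *nhr-127* held 3.94, 3.82 and 3.34 CPM in normoxia and 0.655, 0.409 and 0.670 CPM in hypoxia (-2.55 ± 0.23, adjusted p = 4.3e-06), and it passed the filter in that exposure only. *nhr-113* and *nhr-127* thus passed through the group in which they were high. *nhr-193* fell in exposures 2 to 4, with log2 fold changes of -2.42, -2.31 and -0.95 (SE 0.16, 0.36 and 0.27) and a value of -0.98 ± 0.47 in exposure 1 (adjusted p = 0.186), in which the groups overlapped. In exposure 4 its call was lost in 2 of 6 fits that left out a library (adjusted p up to 0.0725, without hypoxia replicate 2).

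*nhr-53* had the largest rise of exposure 4, to 5.13, 5.71 and 5.34 CPM in hypoxia from 1.82, 1.62 and 1.45 CPM in normoxia. Its log2 fold changes were 1.39 ± 0.48, 1.80 ± 0.21, 0.07 ± 0.20 and 1.69 ± 0.15 (SE) in exposures 1 to 4, with adjusted p of 0.0868, 2.4e-05, 0.81 and 7e-05. In exposure 1, hypoxia replicate 2 held 3.29 CPM, within the normoxia range of 2.47 to 4.17 CPM, beside 10.5 and 11.4 CPM in the other hypoxia libraries. *nhr-18* had log2 fold changes of 1.49 ± 0.41, 0.39 ± 0.11, 0.28 ± 0.27 and 1.12 ± 0.24 (SE) in exposures 1 to 4, with adjusted p of 0.0465, 0.00748, 0.484 and 0.00576, and its call in exposure 1 was lost in 4 of 6 fits (adjusted p up to 0.145, without hypoxia replicate 3). *nhr-161* fell in exposures 1 to 3 and was not called in exposure 4, with log2 fold changes of -0.99 ± 0.22, -0.92 ± 0.20, -0.58 ± 0.19 and -0.37 ± 0.18 (SE) in exposures 1 to 4, with adjusted p of 0.0231, 0.00167, 0.0493 and 0.115. Its calls in exposures 1 and 3 were each lost in 5 of 6 such fits (adjusted p up to 0.117, without normoxia replicate 2, and 0.156, without normoxia replicate 3).

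Of the 11 receptors listed from subfamilies that are conserved between worms and other animals, 10, 10, 9 and 9 were tested in exposures 1 to 4. In exposure 1, 1 rose and none fell, in exposure 2, 5 rose and 3 fell, in exposure 3 none rose and 2 fell, and in exposure 4, 5 rose and none fell. All genes tested were likewise called up in larger shares in exposures 2 and 4 (37.2% and 27.1%) than in exposures 1 and 3 (13.3% and 12.4%). The median log2 fold changes of the group were 0.26, 0.17, -0.06 and 0.46 in that order. *nhr-111* had too few counts in every exposure, and *nhr-67*, related to the vertebrate receptor TLX and known from vulval and uterine development, had enough counts in exposures 1 and 2 only (-0.97, not called, and -0.78, called down).

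Of this group, *nhr-14*, an HNF4-type receptor that controls the uptake of iron, rose in exposures 1, 2 and 4. The normoxia libraries of exposure 1 held 20.9, 24.4 and 24.9 CPM and the hypoxia libraries 31.7, 28.8 and 32.9 CPM, followed by 27.6, 29.5 and 30.3 CPM and 44.5, 39.5 and 33.1 CPM in exposure 2. Exposure 3 gave 22.2, 20.1 and 22.3 CPM in normoxia and 26.2, 21.7 and 27.4 CPM in hypoxia, and exposure 4 gave 17.7, 13.9 and 15.9 CPM and 32.2, 31.01 and 37.2 CPM. The groups overlapped only in exposure 3. Relative to normoxia, its log2 fold changes were 0.43 ± 0.12, 0.53 ± 0.10, 0.22 ± 0.12 and 1.04 ± 0.11 (SE) in exposures 1 to 4, with adjusted p of 0.0399, 0.000953, 0.194 and 0.000148, and the call of exposure 1 was lost in 5 of 6 fits that left out a library (adjusted p up to 0.139, without hypoxia replicate 3). *nhr-69*, an HNF4-type receptor linked to insulin secretion, and *nhr-8*, a relative of DAF-12 that acts in sterol balance and xenobiotic resistance, rose in exposures 2 and 4. The log2 fold changes of *nhr-69* (exons overlapping *inx-20* on the opposite strand) were 0.67 ± 0.21, 0.47 ± 0.08, 0.34 ± 0.22 and 0.69 ± 0.12 and those of *nhr-8* (overlapping *21ur-14273* on the same strand and *F33D4.6* on the opposite strand) were 0.70 ± 0.36, 0.23 ± 0.07, -0.47 ± 0.16 and 0.46 ± 0.10. In exposure 1, *nhr-8* held 48.4 and 57.9 CPM in hypoxia replicates 1 and 3 but 21.8 CPM in replicate 2, within the normoxia range of 19.9 to 31.2 CPM.

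*nhr-85*, related to the vertebrate clock receptor Rev-erb and part of the developmental timing system, moved in both directions. In exposure 1, normoxia libraries held 8.61, 10.7 and 12.2 CPM and hypoxia libraries 13.1, 6.73 and 15.3 CPM, and in exposure 2 these were 9.301, 13.2 and 13.2 CPM and 23.2, 19.2 and 21.9 CPM. The corresponding values were 9.34, 13.3 and 12.3 CPM and 7.08, 6.16 and 8.73 CPM in exposure 3 and 13.6, 13.6 and 12.2 CPM and 21.1, 22.1 and 21.7 CPM in exposure 4. Hypoxia was above normoxia without overlap in exposures 2 and 4, below it without overlap in exposure 3, and the groups overlapped in exposure 1. On the log2 scale the fold changes were 0.19 ± 0.32, 0.95 ± 0.14, -0.66 ± 0.19 and 0.68 ± 0.09 (SE) in exposures 1 to 4, with adjusted p of 0.707, 0.000139, 0.032 and 0.000356. Its fall in exposure 3 was lost in 4 of 6 fits that left out a library (adjusted p up to 0.111, without hypoxia replicate 2), and its exons overlap *npr-14* on the opposite strand. *nhr-48*, another relative of DAF-12, fell in exposures 2 and 3 (-0.44 ± 0.06 and -0.25 ± 0.08) with values of -0.26 ± 0.11 and 0.12 ± 0.07 in exposures 1 and 4. The call of *nhr-48* in exposure 3 was lost in 5 of 6 such fits (adjusted p up to 0.165, without normoxia replicate 3).

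The other conserved receptors were called at most once. *nhr-6*, the worm member of the NR4A group, which acts in the spermatheca, rose in exposure 2 only (0.73 ± 0.18, adjusted p = 0.00481). *nhr-64*, an HNF4-type receptor, rose in exposure 4 only (0.64 ± 0.17, adjusted p = 0.0149), a call lost in 1 of 6 fits (0.062, without hypoxia replicate 2). *nhr-91*, related to the vertebrate germ cell nuclear factor, fell in exposure 2 only (-0.43 ± 0.11, adjusted p = 0.0046). *nhr-41* was not called in any exposure, with log2 fold changes of 0.17 ± 0.25, 0.0 ± 0.13, -0.06 ± 0.14 and 0.13 ± 0.10. Exons of *nhr-6*, *nhr-64* and *nhr-91* overlap genes on the opposite strand.

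Of the 6 receptors of fat and sterol metabolism listed, all were tested and *nhr-80*, *nhr-62*, *nhr-66* and *nhr-8* were called at least once. None was called in exposure 1, 1 rose and 2 fell in exposure 2, 1 rose and 1 fell in exposure 3, and 2 rose and 1 fell in exposure 4. Over all genes tested, the shares that rose and fell were 37.2% and 36.3% in exposure 2, 12.4% and 17.7% in exposure 3, and 27.1% and 23% in exposure 4. The group had median log2 fold changes of -0.20, -0.13, -0.14 and -0.13. *nhr-80* encodes a receptor that raises the transcripts of the Δ9 fatty acid desaturases and rose in exposures 3 and 4. Its level in exposure 1 was 10.1, 15.1 and 13.9 CPM in normoxia and 27.4, 10.5 and 27.1 CPM in hypoxia, and in exposure 2 it was 16.9, 22.8 and 19.1 CPM and 19.9, 22.5 and 24.5 CPM. In exposure 3, 15.5, 12.04 and 14.2 CPM were measured in normoxia and 19.7, 20.1 and 21.3 CPM in hypoxia, and in exposure 4 9.03, 9.68 and 8.84 CPM and 22.9, 22.3 and 17.5 CPM. The groups were apart in exposures 3 and 4 and overlapped in exposures 1 and 2, where hypoxia replicate 2 of exposure 1 was in the normoxia range. The log2 fold changes were 0.76 ± 0.38, 0.29 ± 0.12, 0.55 ± 0.13 and 1.15 ± 0.12 (SE) in exposures 1 to 4, with adjusted p of 0.199, 0.0562, 0.0134 and 0.000173.

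The desaturase genes listed as targets of NHR-80 are set beside it, as values of the same fits. *fat-6* rose in exposures 1, 3 and 4 by 1.90 ± 0.36, 1.71 ± 0.27 and 2.68 ± 0.10 on the log2 scale and was at -0.19 ± 0.09 in exposure 2 (adjusted p = 0.0796). The normoxia level of *fat-6* was 1611, 1846 and 1500 CPM in exposure 2, against 181 to 605 CPM in the normoxia libraries of the other exposures. *fat-7* rose in exposures 2, 3 and 4 (1.72, 3.16 and 2.20) and *fat-5* fell in exposure 2 (-3.30) and rose in exposure 4 (2.38). In exposure 4, in which *nhr-80* rose the most, all 3 targets rose. In exposure 3, in which *nhr-80* also rose, *fat-5* was not called (-0.75 ± 0.58).

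Among the other fat receptors, *nhr-62*, which is needed for the longer life of diet-restricted worms, fell in exposures 2 and 3 (-1.43 ± 0.14 and -0.97 ± 0.30) with values of -0.30 ± 0.27 and -0.16 ± 0.16 in exposures 1 and 4. Its call in exposure 3 was lost in 4 of 6 fits that left out a library (adjusted p up to 0.123, without normoxia replicate 3). *nhr-66*, a partner of NHR-49 in lipid metabolism, fell in exposure 2 from 105, 106 and 111.3 CPM to 67.1, 68.96 and 62.5 CPM (-0.60 ± 0.06) and by 0.18 on the log2 scale in exposure 4, where 4 of 6 such fits did not call it (adjusted p up to 0.0924, without hypoxia replicate 1). *nhr-13* and *nhr-76* were not called in any exposure, with log2 fold changes of -0.22 to 0.19 and of -0.30 to -0.03. *nhr-66* overlaps *anr-44* and *serp-1.2* on the opposite strand.

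The receptors of the response to nutrients, toxins, metals and pathogens were called in both directions, as were all genes tested. Of all genes tested, 13.3%, 37.2%, 12.4% and 27.1% rose and 7.4%, 36.3%, 17.7% and 23% fell in exposures 1 to 4. Of 7 tested in every exposure, 2 rose and 1 fell in exposure 1, 4 rose and 2 fell in exposure 2, none rose and 3 fell in exposure 3, and 3 rose and 2 fell in exposure 4, with median log2 fold changes of 0.42, 0.35, 0.20 and 0.09. *nhr-10*, the partner of *nhr-68* in the propionate shunt, rose in exposures 1, 2 and 4, in which *nhr-68* fell. The normoxia libraries of exposure 1 held 22.3, 27 and 29.5 CPM and the hypoxia libraries 43.4, 31.9 and 45.3 CPM, followed by 31.8, 27.9 and 30.7 CPM and 47.6, 43.1 and 43.97 CPM in exposure 2. Exposure 3 gave 23.7, 22.6 and 27.3 CPM in normoxia and 30.2, 27.01 and 30.4 CPM in hypoxia, and exposure 4 gave 21.6, 21.99 and 24.8 CPM and 43.3, 45.1 and 44.9 CPM. All hypoxia libraries of exposures 1, 2 and 4 were above their normoxia libraries, and the groups overlapped in exposure 3. Relative to normoxia, its log2 fold changes were 0.64 ± 0.17, 0.68 ± 0.08, 0.25 ± 0.11 and 0.93 ± 0.07 (SE) in exposures 1 to 4, with adjusted p of 0.0436, 2e-05, 0.12 and 3.8e-05, the call of exposure 1 being lost in 5 of 6 fits that left out a library (adjusted p up to 0.145, without hypoxia replicate 3).

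Among the shunt genes listed as targets of NHR-10 and NHR-68, none was called down in exposures 1 and 2, and 4 were in each of exposures 3 and 4. Of 5 tested, 1 rose and none fell in exposure 1 and 4 rose in exposure 2. In exposure 3, 4 fell, and in exposure 4, 4 fell and 1 rose. The shares over all genes tested were 13.3%, 37.2%, 12.4% and 27.1% rising and 7.4%, 36.3%, 17.7% and 23% falling in that order. *acdh-1*, the first enzyme of the shunt, held 797, 819 and 592 CPM in normoxia and 19.8, 29.3 and 24.8 CPM in hypoxia in exposure 3. In exposure 4 it held 602, 460 and 573 CPM in normoxia and 16.8, 18.1 and 19.5 CPM in hypoxia. These are log2 fold changes of -4.91 ± 0.19 and -4.94 ± 0.12 (adjusted p = 1.0e-05 and 8.7e-07, edgeR). In exposures 1 and 2 *acdh-1* was at -0.01 ± 0.30 and 0.34 ± 0.09, and it was called up in exposure 2, in which *nhr-68* fell by 1.03 on the log2 scale. In that exposure the groups overlapped for *acdh-1*, *ech-6* and *hphd-1* and were apart for *hach-1*. *hphd-1*, a later enzyme of the shunt, had log2 fold changes of 0.25, 0.26, -1.52 and -1.50.

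*nhr-114*, an HNF4-type receptor that turns on genes of the methionine and S-adenosylmethionine cycle and protects the germ line on a poor diet, changed direction between exposures. In exposure 1, normoxia libraries held 63.6, 29.4 and 22.9 CPM and hypoxia libraries 10.2, 23.4 and 9.62 CPM, and in exposure 2 these were 11.7, 12.2 and 13.04 CPM and 14.8, 17.3 and 15.2 CPM. The corresponding values were 26.1, 48.2 and 20.6 CPM and 7.18, 6.75 and 8.03 CPM in exposure 3 and 21.4, 40.3 and 35.6 CPM and 9.72, 9.73 and 8.48 CPM in exposure 4. The hypoxia libraries of exposures 3 and 4 were all below their normoxia libraries, those of exposure 2 all above, and in exposure 1 hypoxia replicate 2 exceeded the lowest normoxia library. Normoxia levels also differed, from 11.7 to 13.04 CPM in exposure 2 to 22.9 to 63.6 CPM in exposure 1. On the log2 scale the fold changes were -1.42 ± 0.50, 0.46 ± 0.10, -2.11 ± 0.30 and -1.84 ± 0.22 (SE) in exposures 1 to 4, with adjusted p of 0.0907, 0.00232, 0.00169 and 0.000281. By a contrast in 1 edgeR fit of all 24 libraries, the hypoxia effect differed between exposures 1 and 2 by 1.78 on the log2 scale (adjusted p = 0.0122). That fit shares a single estimate of the spread and so understates the spread of exposure 1, in which the libraries were uneven.

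Of the 6 listed targets of NHR-114, none was called in exposure 1, 4 rose and 1 fell in exposure 2, 4 fell in exposure 3 and all 6 fell in exposure 4, with median log2 fold changes of -0.30, 0.66, -1.28 and -0.82. *pmp-5*, a peroxisomal-type ABC transporter, held 12.5, 12.6 and 11.8 CPM in normoxia and 26.01, 28.4 and 24.3 CPM in hypoxia in exposure 2, and 61.6, 82.4 and 78.7 CPM against 9.75, 11.3 and 9.10 CPM in exposure 4. Its log2 fold changes were -0.38, 1.20, -2.93 and -2.92. *folt-2*, a folate transporter gene, had log2 fold changes of -0.84, 1.37, -2.78 and -1.80, and *sams-1*, the main S-adenosylmethionine synthetase, of -0.96, 0.51, -1.94 and -1.01. The values of exposure 1 were not called for any of these 3 genes. These 3 targets thus rose with *nhr-114* in exposure 2 and fell with it in exposures 3 and 4. The other listed targets did not do so throughout. *metr-1* fell in exposure 2 (-0.42), *mtrr-1* was not called in exposures 2 and 3 (0.02 and -0.00), and *mel-32* was not called in exposure 3 (0.12). Among all genes tested, 13.3%, 37.2%, 12.4% and 27.1% rose and 7.4%, 36.3%, 17.7% and 23% fell in exposures 1 to 4. Marker genes of the intestine, where these receptors act, had median log2 fold changes of -0.35, 0.40, -0.60 and -0.01, with 0, 4, 0 and 2 of 7 markers up and 1, 2, 5 and 2 down in exposures 1 to 4 and a summed level of 3151 to 6246 CPM in normoxia and 4184 to 7619 CPM in hypoxia, none of them at 0 in a library. The sum is carried mostly by *asp-1*, with mean levels of 3821, 4695, 3946 and 2206 CPM in normoxia in exposures 1 to 4. Its means in hypoxia were 4126, 5762, 4806 and 3271 CPM. The part of the intestinal markers in these results was not tested.

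**Figure D3:**
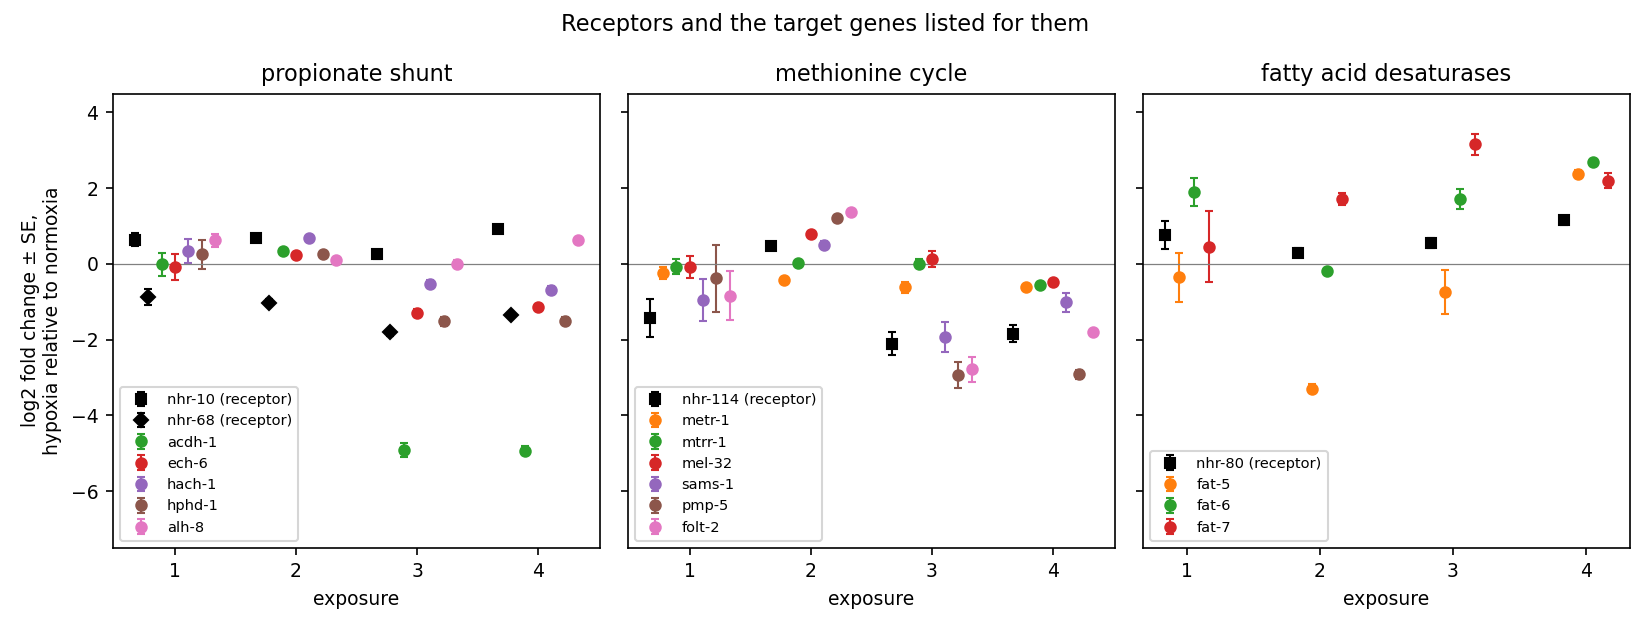
Log2 fold change of hypoxia relative to normoxia ± SE (y axis) in exposures 1 to 4 (x axis) for receptor genes (black) and the genes listed as their targets (colors), for the propionate shunt (*nhr-10*, *nhr-68*), the methionine cycle (*nhr-114*) and the fatty acid desaturases (*nhr-80*). *acdh-1* lies near 0 in exposures 1 and 2 and at -4.91 and -4.94 in exposures 3 and 4, and *pmp-5* goes from 1.20 in exposure 2 to -2.92 in exposure 4.

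*nhr-45*, which acts in the intestinal response to xenobiotics and mitochondrial stress, rose in exposures 2 and 4 (0.35 ± 0.09 and 0.62 ± 0.08), with values of 0.48 ± 0.18 and 0.33 ± 0.11 in exposures 1 and 3. Its listed target *cyp-14A4*, a cytochrome P450 gene, was at most 0.861 CPM in any normoxia library and 5.81 to 29.8 CPM in the hypoxia libraries, and was called up in all 4 exposures. It passed the filter through its hypoxia libraries, and no fold is given against a normoxia level so near 0. *ugt-61*, the other listed target, rose in exposures 2 and 4. *nhr-86*, a receptor of pathogen sensing in the intestine (exons overlapping *comt-3* on the opposite strand), was nearly flat, with log2 fold changes of 0.13 ± 0.10, -0.19 ± 0.08, 0.20 ± 0.08 and 0.09 ± 0.08; its fall in exposure 2 was lost in 4 of 6 fits that left out a library (adjusted p up to 0.165, without normoxia replicate 2).

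The immune genes *irg-4* and *irg-5*, listed as targets of NHR-86, were not called in exposure 1, in which *irg-4* was at 0.09 and *irg-5* at -1.08 (adjusted p = 0.0742) with all hypoxia libraries below normoxia. Both rose in exposures 2 and 3, by 2.40 each and by 1.23 and 3.86 on the log2 scale, while in exposure 4 *irg-4* fell (-0.69) and *irg-5* rose (1.61). *nhr-176*, which binds the drug thiabendazole, fell in exposure 3 only (-1.05 ± 0.20, adjusted p = 0.00571). Its target *cyp-35D1* passed the filter in exposure 4 alone, through its normoxia libraries, with 1.995, 2.699 and 2.55 CPM in normoxia and 1.19, 0.861 and 0.815 CPM in hypoxia.

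Of the 8 receptors listed with a role in development, 7, 7, 6 and 6 were tested in exposures 1 to 4. None rose and 1 fell in exposure 1, 2 rose and 3 fell in exposure 2, none rose and 3 fell in exposure 3, and 1 rose and 1 fell in exposure 4. Over all genes tested, 7.4%, 36.3%, 17.7% and 23% fell in exposures 1 to 4. This group had median log2 fold changes of -0.21, -0.14, -0.47 and -0.15. *nhr-2*, *nhr-6*, *nhr-67*, *nhr-85* and *nhr-91* are described above. *nhr-31*, needed for the growth of the excretory canal, fell in exposure 3 from 34.6, 62.9 and 44.9 CPM to 20.8, 24.1 and 26.4 CPM (-1.0 ± 0.21, adjusted p = 0.00888) and was not called elsewhere (-0.40, -0.14 and -0.10). *nhr-40*, which acts in muscle development (overlapping *T03G6.7* on the same strand), was not called in any exposure, with log2 fold changes of -0.20 to -0.02. *nhr-60*, expressed in the epidermis, had 208 to 308 counts per exposure and was not tested.

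Molting genes moved in the same libraries, in which many genes did. In exposures 1 to 4, 13.3%, 37.2%, 12.4% and 27.1% of all genes tested rose and 7.4%, 36.3%, 17.7% and 23% fell. Of the 5 molting genes listed, 2 fell in exposure 1, 3 rose and 2 fell in exposure 2, all 5 fell in exposure 3 and 4 fell in exposure 4, with median log2 fold changes of -0.56, 0.79, -2.73 and -1.10. Their summed level in exposure 3 was 218 to 286 CPM in normoxia and 38.2 to 64.8 CPM in hypoxia, and none was at 0 in a library. Their part in the fall of the developmental receptors was not tested.

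The effect of hypoxia on single receptors also differed between exposures. Of the 141 members tested in all exposures, the hypoxia effect differed between exposures 1 and 2 in 23 (16.3%, against 34.8% of all genes tested) by a contrast in 1 edgeR fit of all 24 libraries. In 21 of the 23 the effect was lower in exposure 2. The effect of exposure 4 differed from the mean of exposures 1 to 3 in 20 members (14.2% against 19.7%), and in 19 of these it was higher in exposure 4. The directions were not counted over all genes called by these contrasts. This fit shares a single estimate of the spread and so understates that of exposure 1. Like the CPM, it also uses a single normalization of all 24 libraries. Over all genes tested, log2 ratios of mean CPM minus separately fitted changes had medians of -0.02, -0.10, 0.00 and 0.04 in exposure order. Differences from this fit therefore need not equal differences of the separately fitted log2 fold changes. The offsets are lowest in exposure 2 and highest in exposure 4, the same directions as most of the differences counted here. In this fit 25 members rose in exposure 2, against 47 in the separate fit. The part of the normalization in the 2 directions was not tested. Leaving out single libraries moved the first count to between 12 and 35 (35 without hypoxia replicate 2 and 12 without normoxia replicate 1 of exposure 1, and 14 or 15 without hypoxia replicate 1 or 3 of exposure 1, hypoxia replicate 2 or 3 of exposure 2, hypoxia replicate 3 of exposure 3 or normoxia replicate 2 of exposure 4) and the second to between 7 and 26 (7 without normoxia replicate 2 of exposure 4, 10 without hypoxia replicate 1 of exposure 4 and 26 without normoxia replicate 1 of exposure 1).

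*nhr-46* (IV:5747363-5757862, minus strand) was among the members with the smallest p in both of these tests. Its level in exposure 1 was 57.4, 69.02 and 74.4 CPM in normoxia and 52.5, 51.8 and 53.5 CPM in hypoxia, and in exposure 2 it was 88.05, 84.3 and 93.5 CPM and 45.7, 45.6 and 48.5 CPM. In exposure 3, 59.1, 55.97 and 63.2 CPM were measured in normoxia and 46.3, 50.1 and 49.2 CPM in hypoxia, and in exposure 4 61.7, 49.2 and 54.9 CPM and 51.1, 59.1 and 60.04 CPM. Hypoxia was below normoxia without overlap in exposures 1, 2 and 3, and within the normoxia range in exposure 4. Its log2 fold changes were -0.33 ± 0.10, -0.82 ± 0.06, -0.29 ± 0.08 and 0.0 ± 0.09 (SE) in exposures 1 to 4, with adjusted p of 0.0712, 1e-06, 0.0247 and 0.993. The effect in exposure 2 minus that in exposure 1 was -0.58 (adjusted p = 0.0019) and the effect in exposure 4 was 0.56 higher than the mean of exposures 1 to 3 (adjusted p = 0.00102), and the call of exposure 3 was lost in 3 of 6 fits that left out a library (adjusted p up to 0.0969, without normoxia replicate 3). *nhr-48* had an effect 0.52 higher in exposure 4 than the mean of exposures 1 to 3 (adjusted p = 0.000318), its hypoxia libraries being at 38.5 to 40.5 CPM in exposure 4 and its normoxia libraries at 33.9 to 37.8 CPM. *nhr-274* (IV:1637954-1645298) fell in exposure 2 only, from 46.5, 49.4 and 48.3 CPM to 30.4, 32.4 and 34.1 CPM (-0.47 ± 0.07), and its effect in exposure 2 minus that in exposure 1 was -0.53 (adjusted p = 0.00292). *nhr-88* (II:2976639-2987023) rose in exposures 1, 2 and 4, with log2 fold changes of 0.84 ± 0.19, 0.70 ± 0.08, 0.22 ± 0.16 and 0.65 ± 0.15 (SE) in exposures 1 to 4, with adjusted p of 0.0242, 1.9e-05, 0.357 and 0.00719, and its call of exposure 1 was lost in 3 of 6 fits (adjusted p up to 0.0863, without hypoxia replicate 3).

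**Figure D4:**
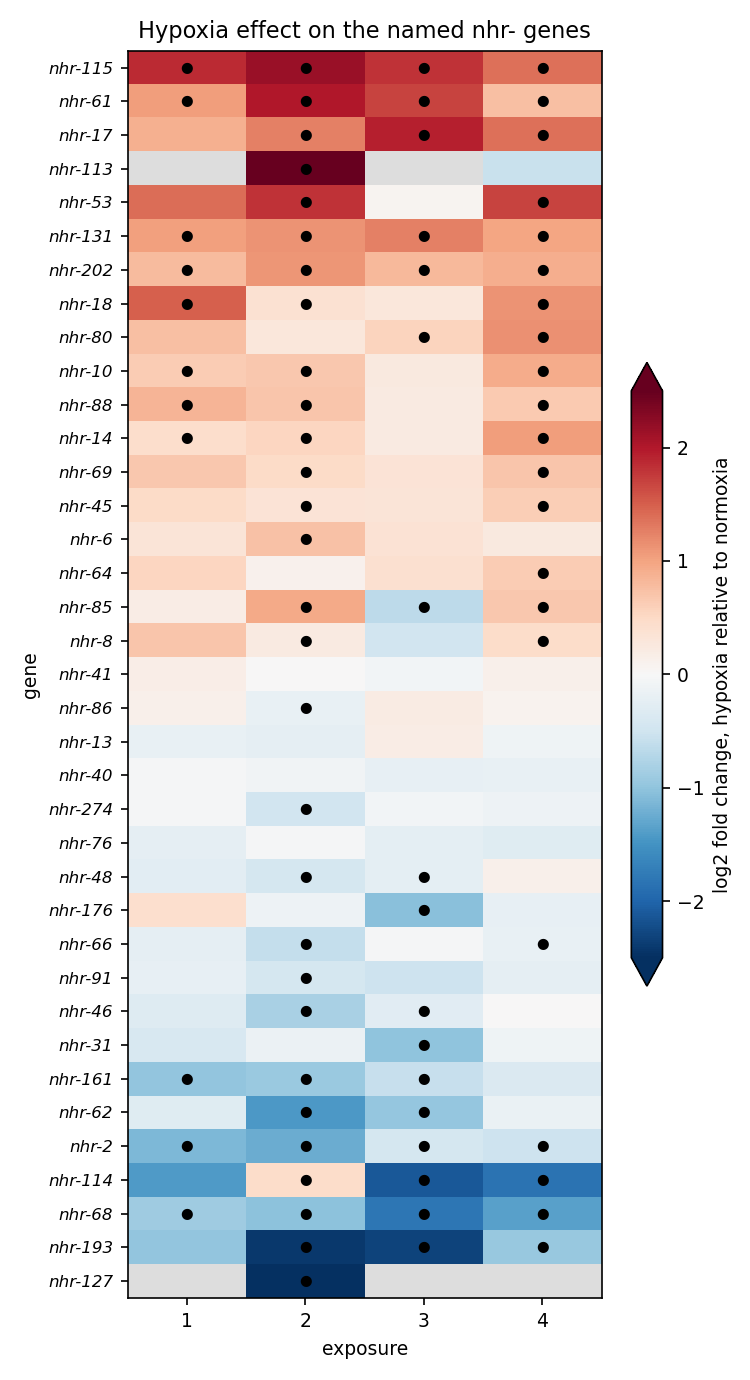
Log2 fold change of hypoxia relative to normoxia (color, red for higher and blue for lower in hypoxia, with values beyond ±2.5 in the end colors) of the 37 *nhr-* genes named by rule (rows, ordered by mean) in exposures 1 to 4 (columns). Dots mark calls at an adjusted p under 0.05 and light grey cells were not tested. The column of exposure 3 holds fewer red cells with a dot than that of exposure 4, and over the whole family 13 and 42 members were called up there.

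Levels of the family also differed between cultures without hypoxia. Among the 4 normoxia groups, 85 of the 141 members differed (60.3%, against 54% of all genes tested). Without normoxia replicate 2 of exposure 4, 56 did. The summed level of all members was 1579, 1885 and 1971 CPM in the normoxia libraries of exposure 1, 2218, 2312 and 2361 CPM in exposure 2, 1828, 1621 and 1947 CPM in exposure 3 and 1640, 1454 and 1550 CPM in exposure 4. Exposure 2 was thus the highest and did not overlap with the others. In hypoxia the sums were 2034, 1690 and 2141, 2247, 2067 and 2092, 1728, 1634 and 1804, and 1773, 1807 and 1832 CPM in the same order. On this scale, hypoxia was above normoxia without overlap in exposure 4 alone. That separation depends on the normalization of hypoxia replicate 1, which stood apart from its group. As a share of raw counts, members held 0.148% in that library, below the 0.169, 0.155 and 0.157% of normoxia. The other hypoxia libraries of exposure 4 held 0.19 and 0.192%. The number of exposures and the culture of that generation cannot be told apart in this design. By the methods of the study, control worms stayed in normal oxygen throughout, but the labels do not say which worms laid the eggs of each later normoxia group.

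Many members are neighbours. On chromosome V and elsewhere, 115 of the 265 members (43.4%) lie in 22 groups of at least 3 in which each gene is within 10 kb of the next, 16 of the groups on chromosome V. In 8 groups, which hold 31 members, no member passed the filter in any exposure. The largest group, 12 members between V:451451 and V:497297, holds *nhr-202* and *nhr-131*. Of its 11 members tested, 2 rose and none fell in exposure 1, 6 rose and none fell in exposure 2, 2 rose and 2 fell in exposure 3, and 5 rose and none fell in exposure 4, while 13.3%, 37.2%, 12.4% and 27.1% of all genes tested rose in exposures 1 to 4. A group of 9 between V:2257420 and V:2296977 holds *nhr-115*, whose neighbour *nhr-226*, named after its values were seen, rose in exposures 1 to 3 (1.10, 1.17 and 1.02) and was at 0.44 in exposure 4 (adjusted p = 0.106). This group did not move as a whole. Of 6, 7, 6 and 6 members tested in exposures 1 to 4, 2, 3, 2 and 1 rose and 0, 2, 0 and 0 fell. The falls of exposure 2 were those of *nhr-59* (-0.73) and *nhr-225* (-1.03). In the group of 7 between V:6980587 and V:7000651, which holds *nhr-161*, 1 member rose and 4 fell of 7 tested in exposure 2, in which 36.3% of all genes tested fell. Neighbours can be near-identical copies that share reads, so their single values are less certain than those of isolated members.

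Members on chromosome V had lower levels than the rest, with a median of 2.98 against 8.15 CPM per kilobase among those tested at least once. In exposure 4, 18 of 91 tested on chromosome V rose (19.8%), against 24 of 61 on the other chromosomes (39.3%). The shares that rose in exposures 1 to 3 were 10.2%, 29.2% and 10.3% on chromosome V and 11.9%, 32.2% and 7.02% elsewhere. Those that fell in exposures 1 to 4 were 2.27%, 27.1%, 16.1% and 4.4% on chromosome V and 3.39%, 40.7%, 26.3% and 9.84% elsewhere. The shares of all genes tested were 13.3%, 37.2%, 12.4% and 27.1% rising and 7.4%, 36.3%, 17.7% and 23% falling. Shares over all genes were not counted by chromosome. Low counts are harder to call, and the part of the level in these shares was not tested.

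Receptors that carry another name, and cofactors and dafachronic acid enzymes, were counted for comparison. Beside them, 13.3%, 37.2%, 12.4% and 27.1% of all genes tested rose and 7.4%, 36.3%, 17.7% and 23% fell in exposures 1 to 4. Of 6 such receptors listed, 3, 4, 2 and 3 were tested in exposures 1 to 4, of which 0, 1, 0 and 1 rose and 1, 2, 1 and 1 fell. Of 7 cofactors and enzymes, 6 were tested in each exposure, of which 1, 2, 0 and 2 rose and 0, 3, 1 and 1 fell. *daf-12*, the receptor of the dafachronic acids that governs dauer entry, rose in exposures 2 and 4 (0.84 and 0.33). *sex-1*, a receptor that counts X chromosomes in the embryo, fell in all 4 exposures (-0.95, -1.28, -0.56 and -0.30), with 34.3 to 53.5 CPM in normoxia and 16.3 to 31.9 CPM in hypoxia. *fax-1* passed the filter in exposure 2 only, through its normoxia libraries (2.15, 2.94 and 4.45 CPM, against 0.587, 0.73 and 0.612 CPM in hypoxia), and *hizr-1*, the zinc receptor, was not called where it was tested, while *odr-7* and *unc-55* were never tested. *daf-9*, the cytochrome P450 that makes dafachronic acids, rose in exposures 1, 2 and 4 (2.14, 2.83 and 1.03). It held 1.56, 1.68 and 1.70 CPM in normoxia and 8.17, 3.11 and 10.1 CPM in hypoxia in exposure 1. *mdt-15*, the Mediator subunit through which NHR-49 and NHR-80 act, fell in exposure 2 (-0.68) and was between -0.09 and 0.17 in the others, and *strm-1*, a sterol methyltransferase gene that limits dafachronic acid precursors, fell in exposures 2 to 4 (-1.36, -1.02 and -0.46).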

How the data were processed

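Poly(A) RNA of whole wild-type worms was sequenced in 24 libraries. According to the methods of the study and the submitters' processing notes, the authors trimmed reads with cutadapt 4.0, aligned them to the WS235 genome with Bowtie2 and counted them per gene with featureCounts. The deposited values are raw counts per gene, and whether the counting used strand is not given in the sources used here. The authors' 4 tables of fold changes and p-values were not used.

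Genes with at least 350 counts summed over the 6 libraries of an exposure were tested with edgeR 4.0.16 (R 4.3.3; TMM normalization, quasi-likelihood test, Benjamini-Hochberg adjustment over all genes tested), hypoxia against normoxia within each exposure. Differences between exposures and between normoxia groups came from a single fit of all 24 libraries. CPM were computed with edgeR's cpm function on the TMM-normalized library sizes. Replicates are separate samples by their labels, and p-values set the difference between groups against the spread between replicates. The scripts were tested on simulated data with a single spread per exposure. Such data hold no library that stands apart, so they do not test the calls under the uneven replicates found here.

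The members, gene lists and tests were chosen with earlier results of these data known. Named members were those called in all 4 exposures, the largest non-overlapping changes of each exposure, the members of the role lists, those with the smallest p for a difference between exposures and those highest per kilobase. Alternatives were DESeq2 1.42.0, upper-quartile normalization, other filters, a fold-change threshold, a single fit, a replicate block and leaving out each library.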

Additional observations from a re-analysis of the deposited data

Results flagged for a closer look

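For 16 results, the effect of hypoxia on a named receptor differed between exposures by a contrast in the edgeR fit of all libraries. That fit understates the spread of exposure 1 and uses a single normalization, as described above. Relative to exposure 1, the log2 effect in exposure 2 was higher for *nhr-114* by 1.78 and for *nhr-61* by 0.88. It was lower for *nhr-193* (-1.52), *nhr-62* (-1.21), *nhr-18* (-1.17), *nhr-46* (-0.58), *nhr-274* (-0.53), *nhr-66* (-0.47), *nhr-86* (-0.42) and *nhr-48* (-0.27). Relative to the mean of exposures 1 to 3, the effect in exposure 4 was higher for *nhr-62* (0.82), *nhr-14* (0.73), *nhr-46* (0.56), *nhr-48* (0.52) and *nhr-10* (0.49) and lower for *nhr-61* (-0.75).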

How the results depend on the processing

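The counts of exposure 1 moved the most with the processing. With DESeq2, 29 members rose and 7 fell in exposure 1, and without a filter on low counts 7 fell. In a single fit of all libraries, which shares 1 estimate of the spread, 44 rose and 15 fell in exposure 1, 25 rose in exposure 2, 5 fell in exposure 4 and 7 rose in all 4 exposures. Asking also for a 2-fold change left 9 rises and 1 fall in exposure 1, 10 and 13 in exposure 2, 8 and 13 in exposure 3, 10 and 2 in exposure 4, and 1 and 0 in all 4 exposures. Upper-quartile normalization gave 14 members with a different effect in exposures 1 and 2. Leaving out single libraries gave 2 to 37 rises and 0 to 7 falls in exposure 1, 42 to 46 and 43 to 51 in exposure 2, 11 to 13 and 16 to 32 in exposure 3 (17 and 18 falls without normoxia and hypoxia replicate 1), 26 to 53 and 8 to 12 in exposure 4, and 1 to 4 and 0 to 3 in all 4 exposures. The same fits gave 12 to 35 and 7 to 26 members with a different effect in exposure 2 and exposure 4, and 56 to 94 that differed among normoxia groups. The cause of these shifts was not tested.

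With the replicate number as a block, 5 members rose and 2 fell in exposure 1 and 2 rose in all 4 exposures. The numbers were not taken to pair the samples, since 2 of 12 same-numbered pairs had a correlation of deviations above 0.1 (range -0.306 to 0.303) and 5 of 12 normoxia libraries correlated best with the hypoxia library of their number. Of 1713 alternative values of named genes, 1551 kept direction and call, 110 lost the call, 52 gained it and none was reversed. For 105 members the counts were too low for a test.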
